A study of Homo sapiens with 9 samples.

Results

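The genes that write and erase methyl and acetyl groups on histones were followed through depletion of BAP1, a nuclear deubiquitinase and tumour suppressor that acts on ubiquitinated histone H2A. The set held lysine demethylases, lysine methyltransferases, arginine methyltransferases, acetyltransferases, zinc-dependent deacetylases and sirtuins, chosen by gene symbol. Symbols of the KDM, KMT, HDAC, SIRT, KAT, SETD, NSD and PRMT series were taken by a pattern that does not cover every gene of these series, together with EP300, CREBBP, DOT1L, EHMT1, EHMT2, SUV39H1 and SUV39H2, and the probe set with the highest average signal stood for each gene. This gave 75 of the 19775 genes measured. The cells were U2OS, an established human osteosarcoma line. The 3 groups had 3 arrays each, and carried a non-targeting hairpin (shControl) or either of 2 hairpins against BAP1 (shBAP1 #1 and shBAP1 #2). All 3 groups were alike in having received hairpin plasmids by lipid transfection, been enriched with puromycin and been arrested at the G1/S border by repeated thymidine block. The arrest is known from the protocol and was not measured. BAP1 has 0 probe sets with its symbol alone in the annotation used, and sets with several symbols were not searched for it. Its knockdown was therefore not analysed here and gives no check of the labels. Whether replicates came from separate cultures is not stated in the labels. The p-values therefore measure only how far these samples spread, and that spread may be technical.

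Histone tails carry methyl groups on lysines and arginines and acetyl groups on lysines. Methyltransferases and acetyltransferases add these groups, and demethylases, deacetylases and the NAD-dependent sirtuins remove them. Acetylation and methylation of lysine 4 of histone H3 are typical of active promoters and enhancers. Methylation of lysine 9 of H3 and tri-methylation of lysine 20 of H4 mark silent chromatin. Methylation of lysines 36 and 79 of H3 lies over transcribed genes. Most of these enzymes also act on proteins other than histones, and the mitochondrial sirtuins act on metabolic enzymes.

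Promoter sequences from the RefSeq-based table (GRCh38.p14) were matched by symbol for 68 of the 75 genes, and the 250 bases before each start were searched on both strands for 5 kinds of motif. These were TTTCCCGC, TTTGGCGC or TTTGGCGG (forms of the E2F site), AAGATGGC (core of the YY1 site), CGCATGCG (core of the NRF1 site), TGACGTCA (the cyclic AMP response element, CRE) and ACTACAA (start of the ZNF143 and THAP11 site); none of these contains another. An E2F form was found in 4 of the 68 genes, or 5.88%, against 4.02% of the 15384 array genes with a promoter. The NRF1 core was found in 3, or 4.41%, against 2.96%, and the CRE in 2, or 2.94%, against 2.81%. The ZNF143 letters were found in 3, or 4.41%, against 3.48%, and the YY1 core in 0, against 1.86%. The E2F forms stood before KDM5A, NSD2, PRMT7 and SIRT6, the NRF1 core before SETD4, SIRT5 and SIRT6, the CRE before SIRT4 and SUV39H2, and the ZNF143 letters before KAT2A, PRMT6 and SIRT2. Among these genes, SIRT6, SIRT2 and SIRT4 rose with shBAP1 #2, by 0.20, 0.51 and 1.54 (log2). PRMT7 changed by -0.09 with either hairpin and was not called. The 150 bases before the start are shown for 6 genes picked with their changes known, which do not represent all genes with a motif. KAT2B and SETD7 had the largest falls shared by both hairpins and hold none of the letters searched, SUV39H2 fell with both and SETD4 moved in opposite directions, and NSD2 and KDM5A fell with shBAP1 #2. Each runs 5′ to 3′ on the strand of its gene with the matched letters in capitals: KAT2B at chr3:20040296-20040445 (plus strand), SETD7 at chr4:139556220-139556369 (minus strand), SUV39H2 at chr10:14878716-14878865 (plus strand) with the CRE, SETD4 at chr21:36060527-36060676 (minus strand) with the NRF1 core, NSD2 at chr4:1871243-1871392 (plus strand) with TTTCCCGC and KDM5A at chr12:389321-389470 (minus strand) with TTTGGCGG.
KAT2B: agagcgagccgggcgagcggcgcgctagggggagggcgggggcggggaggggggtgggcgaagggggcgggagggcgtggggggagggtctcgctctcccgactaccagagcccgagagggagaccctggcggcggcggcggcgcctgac
SETD7: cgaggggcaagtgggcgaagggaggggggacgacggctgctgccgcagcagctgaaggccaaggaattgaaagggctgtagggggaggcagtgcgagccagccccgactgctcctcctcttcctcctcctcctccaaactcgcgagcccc
SUV39H2: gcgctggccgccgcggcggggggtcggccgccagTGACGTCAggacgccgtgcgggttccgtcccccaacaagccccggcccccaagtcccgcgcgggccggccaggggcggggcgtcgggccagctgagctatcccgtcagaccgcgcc
SETD4: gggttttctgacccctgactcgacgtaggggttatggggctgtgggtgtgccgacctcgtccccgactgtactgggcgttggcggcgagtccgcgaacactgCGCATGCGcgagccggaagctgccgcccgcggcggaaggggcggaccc
NSD2: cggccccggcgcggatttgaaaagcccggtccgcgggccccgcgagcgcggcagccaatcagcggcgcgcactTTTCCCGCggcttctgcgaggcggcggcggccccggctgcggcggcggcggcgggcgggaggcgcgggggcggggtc
KDM5A: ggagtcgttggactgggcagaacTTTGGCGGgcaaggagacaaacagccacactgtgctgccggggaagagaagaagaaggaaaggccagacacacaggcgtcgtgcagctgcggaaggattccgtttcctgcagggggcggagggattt
A match is a description of the letters only, and no binding was measured here.

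Values are log2 expression, so a difference of 1 is a change by a factor of 2, and a negative difference is a fall. A gene was called changed where limma's Benjamini-Hochberg adjusted p over all 19775 genes was below 0.05. With shBAP1 #1, 14 of the 75 enzyme genes rose (18.7%; 13% of all genes rose) and 10 fell (13.3%; 12.6% of all genes fell). With shBAP1 #2, 16 rose (21.3%; 16.9% of all genes) and 20 fell (26.7%; 16.5% of all genes). For the mean of both hairpins, 14 were higher (18.7%; 14.1% of all genes) and 18 were lower (24%; 14.6% of all genes). The enzyme genes lay higher on the log2 scale than most (median level 8.15, against 6.57 over all genes). Among the 12748 genes whose mean reached 5.44, the middle value over all probe sets, 36.9% were called with shBAP1 #1 and 47.8% with shBAP1 #2, against 32% and 48% of the enzyme genes. These shares lie near the background and are no result about the enzymes as a group, so the changes are described gene by gene. In bulk RNA, fewer cells of a type and less RNA per cell cannot be told apart.

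The median change of the 75 was 0.05 with shBAP1 #1 and -0.02 with shBAP1 #2, beside 0.01 and 0.02 over all genes. 6 genes rose with both hairpins (8%; 6.22% of all genes), 6 fell with both (8%; 5.49% of all genes), and 2 were called in opposite directions (2.67%; 3.44% of all genes). The genes that rose were KDM7A, KDM5B, KMT5B, HDAC6, SIRT7 and KAT5. The genes that fell were SETD7, KAT2B, KDM3A, SUV39H2, HDAC5 and SIRT5. A further 10 genes were called with shBAP1 #1 alone, 22 with shBAP1 #2 alone and 29 with neither, and both comparisons share the 3 control arrays. The count of 14 higher with shBAP1 #1 depended on single arrays. It was 7 without shControl replicate 1 or without shBAP1 #1 replicate 1, 8 without shBAP1 #1 replicate 3 and 9 without shControl replicate 2. The 6 that rose with both became 1 without shControl replicate 2, 2 without shBAP1 #1 replicate 2, and 3 without shBAP1 #1 replicate 3 or shBAP1 #2 replicate 2. The 18 lower for the mean of both became 11 without shControl replicate 1 or 3. The 2 opposite genes became 6 without shBAP1 #2 replicate 1, and 0 without shControl replicate 1 or shBAP1 #1 replicate 1. They became 1 without shControl replicate 2 or 3, shBAP1 #1 replicate 3, or shBAP1 #2 replicate 2 or 3. Of the 12 genes that moved the same way with both, 5 (KAT2B, SETD7, KDM5B, KDM3A and HDAC5) stayed called whichever of the 9 arrays was left out.

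**Figure D1:**
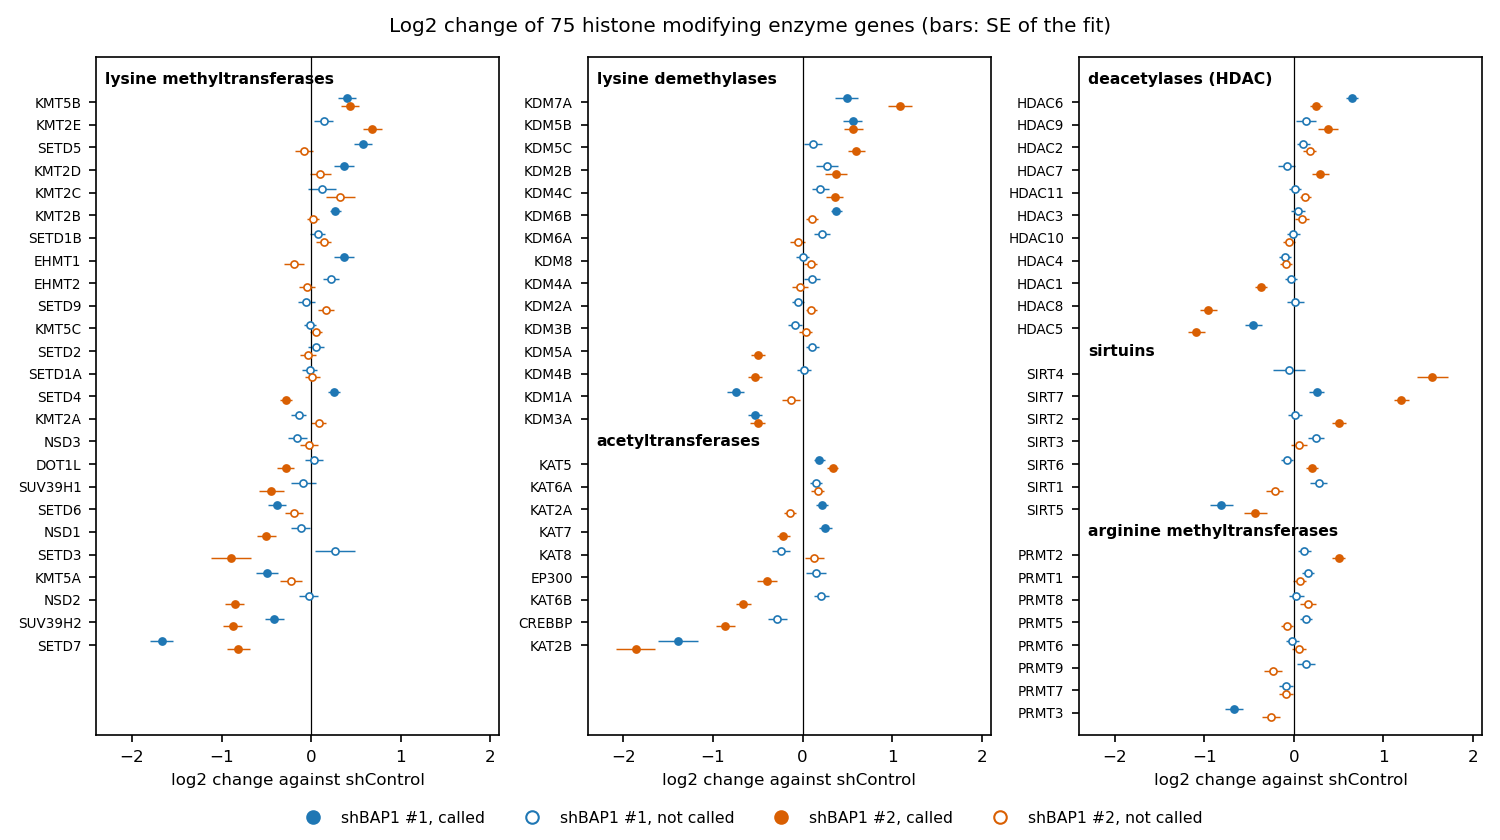
Log2 change against shControl of all 75 genes in 6 families, with the standard error of the limma fit as bars (3 arrays per group); filled points passed an adjusted p of 0.05 and open points did not. SETD7 and KAT2B lie far to the left with both hairpins, while SIRT4 and SIRT7 lie far to the right with shBAP1 #2.

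Among the 25 lysine methyltransferase genes, 6 rose and 4 fell with shBAP1 #1 and 2 rose and 8 fell with shBAP1 #2, with median changes of 0.03 and -0.05. Over all genes, 13% rose and 12.6% fell with shBAP1 #1 and 16.9% rose and 16.5% fell with shBAP1 #2, and these shares stand beside the counts of every family. SETD7, a mono-methyltransferase of lysine 4 of H3 and of many other proteins, had the largest fall with shBAP1 #1 of all 75 genes. It read 10.21, 10.14 and 10.23 in the control arrays, 8.24, 8.52 and 8.81 with shBAP1 #1 and 9.55, 9.26 and 9.33 with shBAP1 #2. All 6 depleted arrays lay below all controls, and those of shBAP1 #1 were lowest. SETD7 changed by -1.67 ± 0.13 with shBAP1 #1 (SE of the fit, as for every ± below, n = 3 arrays per group; adjusted p = 1.62e-05) and by -0.81 ± 0.13 with shBAP1 #2 (adjusted p = 0.000703). The difference between the hairpins, 0.86, was called too (adjusted p = 0.000434).

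SUV39H2, which methylates lysine 9 of H3 in heterochromatin, read 10.28, 10.09 and 10.41 in controls, 9.84, 9.79 and 9.91 with shBAP1 #1 and 9.60, 9.26 and 9.29 with shBAP1 #2. The 3 groups did not overlap in this main set and shBAP1 #2 was lowest. The order was reversed in a further set of SUV39H2, which changed by -1.29 with shBAP1 #1 and -0.70 with shBAP1 #2. Its difference between hairpins, 0.59, was called (limma, adjusted p over all probe sets 0.0463). The main set fell by 0.41 ± 0.11 (adjusted p = 0.0157) and by 0.88 ± 0.11 (adjusted p = 0.000135). The call with shBAP1 #1 was lost without shControl replicate 1 or 3 or shBAP1 #1 replicate 1 or 2 (adjusted p = 0.0519 to 0.0648). Its close relative SUV39H1 changed by -0.09 (adjusted p = 0.75) and fell by 0.44 with shBAP1 #2 (adjusted p = 0.0323). That call was lost without shControl replicate 1, 2 or 3 or shBAP1 #2 replicate 2 or 3 (adjusted p = 0.0527 to 0.118). The other H3 lysine 9 writers form the EHMT1 and EHMT2 complex: EHMT1 rose by 0.37 with shBAP1 #1 (adjusted p = 0.0353) and changed by -0.19 with shBAP1 #2. EHMT2 changed by 0.22 ± 0.09 and -0.05 ± 0.09 without passing, although it passed with shBAP1 #1 in a fit of replicate pairs from the control and shBAP1 #1 arrays alone (adjusted p = 0.0431) and without shBAP1 #1 replicate 2 (adjusted p = 0.0287). A further set of EHMT2 rose by 0.21 with shBAP1 #1 (adjusted p over all probe sets 0.043).

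The 3 writers of H4 lysine 20 methylation did not move together. KMT5B, which adds further methyl groups to an already methylated lysine, read 8.63, 8.55 and 8.56 in controls, 8.98, 9.08 and 8.88 with shBAP1 #1 and 8.77, 9.16 and 9.13 with shBAP1 #2, so that every depleted array lay above the controls. It rose by 0.40 ± 0.10 (adjusted p = 0.0154) and 0.44 ± 0.10 (adjusted p = 0.00735). The former call was lost without shControl replicate 2 or shBAP1 #1 replicate 2 (adjusted p = 0.0504 to 0.0621). KMT5A, which adds the first methyl group and is needed in S phase and mitosis, fell by 0.49 ± 0.12 with shBAP1 #1 (adjusted p = 0.0111) and changed by -0.22 ± 0.12 with shBAP1 #2 (adjusted p = 0.198). KMT5C, the near relative of KMT5B, changed by -0.01 and 0.06.

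Of the 6 catalytic subunits of the COMPASS family, which methylate lysine 4 of H3, 2 rose with shBAP1 #1. With shBAP1 #2, 0 of their main probe sets passed in limma, and 0 had an unadjusted p below 0.05 (the smallest was 0.0645, of KMT2C), but further sets of KMT2A and KMT2D did pass. KMT2B rose by 0.27 ± 0.07 (adjusted p = 0.0105) and KMT2D by 0.37 ± 0.11 (adjusted p = 0.0353). The KMT2D call was lost in a fit of the control and shBAP1 #1 arrays alone, with replicate pairs (adjusted p = 0.0861) or without (0.0667). It was lost without shControl replicate 1 or 3 or shBAP1 #1 replicate 1 or 3 or shBAP1 #2 replicate 2 or 3 (adjusted p = 0.05005 to 0.132). KMT2A, which is often rearranged in leukaemia, changed by -0.14 ± 0.08 and 0.09 ± 0.08 in its main set, neither of which passed. Of its 10 further sets, 1 fell with both hairpins, by 0.94 and 0.99 (adjusted p over all probe sets 0.00024 and 0.00014). Another fell by 0.34 with shBAP1 #1 (0.0458), and another rose by 0.31 with shBAP1 #2 (0.0104). Further sets of KMT2D rose by 1.44 and 0.67 with shBAP1 #1 (adjusted p = 0.000552 and 0.00674), and 1 fell by 0.30 with shBAP1 #2 (0.029). KMT2C changed by 0.12 and 0.33, SETD1A by -0.01 and 0.01 and SETD1B by 0.08 and 0.14, none called. KMT2E, a relative with no known activity on histones, rose by 0.68 ± 0.11 with shBAP1 #2 (adjusted p = 0.000606) and changed by 0.14 with shBAP1 #1.

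Among writers of H3 lysine 36 methylation, NSD2 read 9.57, 9.52 and 9.65 in controls, 9.57, 9.39 and 9.70 with shBAP1 #1 and 8.92, 8.66 and 8.60 with shBAP1 #2. The last 3 arrays lay below the other 6, which overlapped with each other. NSD2, the enzyme over-expressed through a translocation in myeloma, fell by 0.86 ± 0.10 with shBAP1 #2 (adjusted p = 0.000124) and changed by -0.03 with shBAP1 #1 (adjusted p = 0.899). NSD1 fell by 0.50 ± 0.11 with shBAP1 #2 (adjusted p = 0.00395) and changed by -0.11 with shBAP1 #1. SETD2, the tri-methyltransferase of this residue, changed by 0.06 ± 0.09 and -0.03 ± 0.09, and NSD3 by -0.15 and -0.02, none called in their main sets. A further set of NSD3 was called lower with both hairpins (-0.28 and -0.33). With shBAP1 #2, another was called lower (-0.40) and another higher (0.46). DOT1L, the lysine 79 enzyme, changed by 0.03 with shBAP1 #1 and fell by 0.28 ± 0.10 with shBAP1 #2 in its main set (adjusted p = 0.0473). The latter call was lost without shControl replicate 1, 2 or 3 or shBAP1 #1 replicate 1, 2 or 3 or shBAP1 #2 replicate 2 or 3 (adjusted p = 0.0564 to 0.176). With the mean of all probe sets the change was -0.04 (adjusted p = 0.659). A further set of DOT1L rose by 0.58 with shBAP1 #1 (adjusted p over all probe sets 0.00343) and changed by 0.14 with shBAP1 #2.

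The remaining SETD genes carry the catalytic SET domain but differ in substrate. SETD3, a histidine methyltransferase of actin, read 8.52, 8.49 and 8.59 in controls, 8.78, 8.76 and 8.87 with shBAP1 #1 and 8.33, 7.24 and 7.34 with shBAP1 #2. Replicate 1 of shBAP1 #2 stood close to the controls and the other two lay far below. The change was -0.90 ± 0.23 with shBAP1 #2 (adjusted p = 0.0102). With shBAP1 #1 it was 0.27 ± 0.23 and did not pass (adjusted p = 0.469), but passed in a fit of the control and shBAP1 #1 arrays alone, with replicate pairs (adjusted p = 0.0171) or without (0.0145), and without shBAP1 #2 replicate 1 (adjusted p = 0.00995). A further set of SETD3 rose by 0.74 with shBAP1 #1 (adjusted p over all probe sets 0.00124) and changed by -0.12 with shBAP1 #2, not called. SETD5, a regulator of transcription tied to intellectual disability, read 9.13, 9.15 and 8.87 in controls, 9.75, 9.67 and 9.46 with shBAP1 #1 and 8.86, 8.96 and 9.09 with shBAP1 #2. It was high only in the shBAP1 #1 arrays (0.58 ± 0.10, adjusted p = 0.00202), whereas shBAP1 #2 overlapped the controls (-0.08, adjusted p = 0.642). SETD4 read 7.09, 7.12 and 7.12, 7.48, 7.34 and 7.29 and 6.84, 6.88 and 6.78 in the same order of groups. It rose by 0.26 ± 0.07 with shBAP1 #1 (adjusted p = 0.0173) and fell by 0.28 ± 0.07 with shBAP1 #2 (adjusted p = 0.00834), with no overlap among groups. The rise was lost without shControl replicate 1 or shBAP1 #1 replicate 1 (adjusted p = 0.062 to 0.0741). SETD6, which acts on a subunit of NF-kappaB, fell by 0.38 with shBAP1 #1 (adjusted p = 0.0187) and changed by -0.19 with shBAP1 #2, and SETD9 changed by -0.05 and 0.17.

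Of the 15 lysine demethylase genes, 3 rose and 2 fell with shBAP1 #1 and 5 rose and 3 fell with shBAP1 #2, with median changes of 0.11 and 0.09. KDM5B, an eraser of H3 lysine 4 methylation, read 7.77, 7.96 and 7.60 in controls, 8.25, 8.45 and 8.32 with shBAP1 #1 and 8.18, 8.44 and 8.41 with shBAP1 #2. Every depleted array lay above the controls. It rose by 0.56 ± 0.11 (adjusted p = 0.00266) and 0.56 ± 0.11 (adjusted p = 0.00189), nearly the same with either hairpin. The 3 other H3 lysine 4 erasers did not share this pattern. KDM5C rose by 0.60 with shBAP1 #2 (adjusted p = 0.000703) and changed by 0.12 with shBAP1 #1. KDM5A fell by 0.50 with shBAP1 #2 (adjusted p = 0.000447) and changed by 0.11 with shBAP1 #1 in its main set. Of the 5 KDM5A sets, only the main 1 was called with shBAP1 #2. With shBAP1 #1, 2 further sets rose, by 0.28 and 0.42 (adjusted p over all probe sets 0.0348 and 0.0119). KDM1A, the flavin-dependent LSD1, read 9.85, 9.76 and 9.86 in controls, 8.97, 8.93 and 9.33 with shBAP1 #1 and 9.71, 9.66 and 9.72 with shBAP1 #2. Its arrays were low with shBAP1 #1, and those of shBAP1 #2 lay just below the controls. It fell by 0.75 ± 0.10 with shBAP1 #1 (adjusted p = 0.000289), and the change of -0.13 ± 0.10 with shBAP1 #2 did not pass (adjusted p = 0.386).

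Among erasers of H3 lysine 9 methylation, KDM3A, a target of the hypoxia response, read 8.84, 8.91 and 8.68 in controls, 8.25, 8.35 and 8.24 with shBAP1 #1 and 8.21, 8.40 and 8.32 with shBAP1 #2. All 6 depleted arrays lay below the controls. It fell by 0.53 ± 0.08 (adjusted p = 0.000704) and 0.50 ± 0.08 (adjusted p = 0.000714). KDM7A, which also acts on lysine 27, read 6.03, 5.95 and 6.38 in controls, 6.43, 6.69 and 6.73 with shBAP1 #1 and 7.01, 7.28 and 7.34 with shBAP1 #2, rising stepwise over the groups with no overlap. It rose by 0.49 ± 0.13 (adjusted p = 0.0181) and 1.09 ± 0.13 (adjusted p = 0.000126), and the difference of 0.60 between hairpins was called (adjusted p = 0.0045). With the mean of its probe sets that difference was 0.26 and was not called (adjusted p = 0.103). The call with shBAP1 #1 was lost without shControl replicate 1 or 2 or shBAP1 #1 replicate 2 or 3 (adjusted p = 0.0635 to 0.0739). KDM4B fell by 0.53 (adjusted p = 0.000509) and KDM4C rose by 0.36 (adjusted p = 0.0124) with shBAP1 #2, against 0.02 and 0.20 with shBAP1 #1. KDM3B changed by -0.09 and 0.03 and KDM4A by 0.11 and -0.03, none called in their main sets. A further set of KDM4A rose by 0.25 with shBAP1 #1 (adjusted p over all probe sets 0.0268).

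The erasers of H3 lysine 27 methylation were KDM6A and KDM6B. KDM6B, an inducible gene of stress and inflammation, rose in its main set by 0.38 ± 0.06 with shBAP1 #1 (adjusted p = 0.00136). With shBAP1 #2 this set changed by 0.10 ± 0.06 (adjusted p = 0.263). Of the 5 KDM6B sets, 2 further ones rose with shBAP1 #2, by 0.44 and 0.25 (adjusted p over all probe sets 0.0035 and 0.0286). With the mean of all its sets, KDM6B was called with shBAP1 #2 as well (0.20, limma adjusted p = 0.0212). KDM6A, a tumour suppressor, changed by 0.22 ± 0.09 and -0.05 ± 0.09 and passed with neither, though it passed with shBAP1 #1 without shBAP1 #2 replicate 1 (adjusted p = 0.0434). Among the H3 lysine 36 erasers, KDM2B, which brings a Polycomb complex to CpG islands, rose by 0.38 ± 0.12 with shBAP1 #2 (adjusted p = 0.0353) and changed by 0.27 with shBAP1 #1. KDM2A changed by -0.05 and 0.10 and KDM8 by 0.00 and 0.09, none called in their main sets. With shBAP1 #2, a further set of KDM2A changed by -0.46 (adjusted p over all probe sets 0.00208) and a dim one of KDM8 by 0.37 (0.038).

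Of the 9 acetyltransferase genes, 3 rose and 1 fell with shBAP1 #1 (13% and 12.6% of all genes), and 1 rose and 5 fell with shBAP1 #2 (16.9% and 16.5% of all genes). The family had a median of 0.15 with shBAP1 #1 and of -0.21 with shBAP1 #2. Between the hairpins its median difference was -0.47, beside 0.01 over all genes. KAT2B, the PCAF coactivator, had the largest fall of all 75 genes with shBAP1 #2. It read 7.07, 6.56 and 7.02 in controls, 5.50, 5.45 and 5.53 with shBAP1 #1 and 5.62, 4.72 and 4.72 with shBAP1 #2. All 6 depleted arrays lay below all controls, with shBAP1 #2 replicates 2 and 3 lowest. It fell by 1.39 ± 0.22 (adjusted p = 0.000916) and 1.86 ± 0.22 (adjusted p = 0.000111). The difference of -0.47 between hairpins did not pass (adjusted p = 0.131), but passed without shBAP1 #2 replicate 1 (-0.77 with an adjusted p of 0.00131). Its paralogue KAT2A, the catalytic subunit of SAGA, rose by 0.22 ± 0.07 with shBAP1 #1 (adjusted p = 0.0372) and changed by -0.14 with shBAP1 #2 (adjusted p = 0.157; 0.0481 without shBAP1 #2 replicate 1). The rise was lost without shControl replicate 1, 2 or 3 or shBAP1 #1 replicate 1 or 2 or shBAP1 #2 replicate 2 (adjusted p = 0.0508 to 0.119).

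CREBBP and EP300 are paralogous coactivators that acetylate enhancers. CREBBP read 9.64, 9.79 and 9.76 in controls, 9.45, 9.41 and 9.49 with shBAP1 #1 and 9.14, 8.72 and 8.75 with shBAP1 #2, in 3 separate steps. It fell by 0.86 ± 0.10 with shBAP1 #2 (adjusted p = 0.000129). With shBAP1 #1 the change of -0.28 ± 0.10 did not pass (adjusted p = 0.0758), but passed in a fit of the control and shBAP1 #1 arrays alone, with replicate pairs (adjusted p = 0.0214) or without (0.0141), and without shBAP1 #2 replicate 1 (adjusted p = 0.00792). EP300 fell by 0.40 ± 0.11 with shBAP1 #2 (adjusted p = 0.0184) and changed by 0.15 ± 0.11 with shBAP1 #1 (adjusted p = 0.401). The fall was lost without shControl replicate 1 or shBAP1 #2 replicate 2 (adjusted p = 0.0722 to 0.0743).

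The remaining acetyltransferases belong to the MYST family. KAT6B read 8.62, 8.59 and 8.53 in controls, 8.84, 8.77 and 8.76 with shBAP1 #1 and 8.10, 7.78 and 7.88 with shBAP1 #2. The shBAP1 #1 arrays lay above and the shBAP1 #2 arrays below all controls. It fell by 0.66 ± 0.08 with shBAP1 #2 (adjusted p = 0.000176). Its 0.21 with shBAP1 #1 did not pass (adjusted p = 0.103), but passed in the fit without the shBAP1 #2 arrays, with replicate pairs (adjusted p = 0.0462) or without (0.0343), and without shBAP1 #2 replicate 1 (adjusted p = 0.0291). KAT7, which supports replication origin licensing, read 8.97, 9.06 and 9.07 in controls, 9.33, 9.18 and 9.37 with shBAP1 #1 and 8.89, 8.77 and 8.81 with shBAP1 #2, with no overlap among groups. It rose by 0.25 ± 0.07 with shBAP1 #1 (adjusted p = 0.0246) and fell by 0.21 ± 0.07 with shBAP1 #2 (adjusted p = 0.0415). The rise was lost without shControl replicate 1 or shBAP1 #1 replicate 1 or 3 (adjusted p = 0.085 to 0.0974). The fall was lost without shControl replicate 1, 2 or 3 or shBAP1 #1 replicate 1 or shBAP1 #2 replicate 2 or 3 (adjusted p = 0.0522 to 0.128). KAT5, the TIP60 subunit that acts in DNA repair, read 8.36, 8.25 and 8.25 in controls, 8.46, 8.50 and 8.46 with shBAP1 #1 and 8.60, 8.65 and 8.63 with shBAP1 #2, so that the groups formed 3 ascending steps. It rose by 0.18 ± 0.06 (adjusted p = 0.0486; 0.0875 and 0.061 in the fit without the shBAP1 #2 arrays, with and without replicate pairs) and 0.34 ± 0.06 (adjusted p = 0.00146). The first of these calls was lost without shControl replicate 2 or 3 or shBAP1 #1 replicate 1, 2 or 3 or shBAP1 #2 replicate 2 or 3 (adjusted p = 0.0619 to 0.135). KAT6A changed by 0.15 and 0.17 and KAT8 by -0.24 and 0.13, none called.

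Of the 11 zinc-dependent deacetylase genes, 1 rose and 1 fell with shBAP1 #1, and 3 rose and 3 fell with shBAP1 #2, with median changes of 0.01 and 0.09. The class I enzymes HDAC1, HDAC2 and HDAC3 are the nuclear subunits of the Sin3, NuRD, CoREST and NCoR complexes. HDAC1 fell by 0.37 ± 0.07 with shBAP1 #2 (adjusted p = 0.00154) and changed by -0.03 with shBAP1 #1 (adjusted p = 0.812). HDAC2 changed by 0.10 ± 0.07 and 0.18 ± 0.07, passing with neither hairpin unless shControl replicate 3 was left out (adjusted p = 0.0287 with shBAP1 #2). HDAC3 changed by 0.05 ± 0.08 and 0.09 ± 0.08, neither called. HDAC8, which deacetylates the cohesin subunit SMC3, read 8.28, 8.34 and 8.33 in controls, 8.34, 8.37 and 8.28 with shBAP1 #1 and 7.58, 7.33 and 7.17 with shBAP1 #2. Controls and shBAP1 #1 overlapped, and all shBAP1 #2 arrays lay below both. It fell by 0.96 ± 0.09 with shBAP1 #2 (adjusted p = 4.00e-05) and changed by 0.02 with shBAP1 #1 (adjusted p = 0.936).

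HDAC5, a class IIa corepressor of MEF2 factors, read 7.79, 7.62 and 7.59 in controls, 7.24, 7.11 and 7.29 with shBAP1 #1 and 6.72, 6.43 and 6.57 with shBAP1 #2, in 3 descending steps without overlap. It fell by 0.45 ± 0.09 (adjusted p = 0.00386) and 1.09 ± 0.09 (adjusted p = 1.75e-05), and the difference between hairpins of -0.64 was called (adjusted p = 0.000296). These values are of the main set. The other of the 2 HDAC5 sets (mean 6.61) changed by -0.03 and -0.08 and was not called. HDAC6, the cytoplasmic tubulin deacetylase, moved the other way from HDAC5 in its main set. It read 8.07, 8.02 and 8.12 in controls, 8.73, 8.70 and 8.71 with shBAP1 #1 and 8.29, 8.42 and 8.24 with shBAP1 #2, highest with shBAP1 #1. It rose by 0.65 ± 0.07 (adjusted p = 7.02e-05) and 0.25 ± 0.07 (adjusted p = 0.0151). The smaller rise was lost without shControl replicate 2 or shBAP1 #2 replicate 2 (adjusted p = 0.0536 to 0.062). HDAC7 and HDAC9, also of class IIa, rose with shBAP1 #2 by 0.29 (adjusted p = 0.038) and 0.38 (adjusted p = 0.0218), against -0.08 and 0.14 with shBAP1 #1. HDAC4, HDAC10 and HDAC11 passed with neither hairpin in their main sets and changed by -0.10 to 0.13. A further set of HDAC11 rose by 0.78 with shBAP1 #2 (adjusted p over all probe sets 0.000445), and a dim further set of HDAC4 by 0.61 (0.00132). HDAC4 was the 1 gene of the 75 with a mean below 5.44.

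Of the 7 sirtuin genes, 1 rose and 1 fell with shBAP1 #1 and 4 rose and 1 fell with shBAP1 #2. Their median was 0.01 with shBAP1 #1 and 0.20 with shBAP1 #2. SIRT7, a nucleolar deacetylase, read 9.08, 9.15 and 9.15 in controls, 9.38, 9.38 and 9.38 with shBAP1 #1 and 10.13, 10.41 and 10.44 with shBAP1 #2. The groups did not overlap, and shBAP1 #2 stood far above both others. It rose by 0.25 ± 0.08 (adjusted p = 0.0462) and 1.20 ± 0.08 (adjusted p = 6.49e-06). The call with shBAP1 #1 was lost without shControl replicate 1, 2 or 3 or shBAP1 #1 replicate 1, 2 or 3 or shBAP1 #2 replicate 2 (adjusted p = 0.0515 to 0.143). SIRT4, a mitochondrial sirtuin, read 5.47, 4.87 and 4.83 in controls, 5.02, 4.98 and 4.99 with shBAP1 #1 and 6.27, 6.74 and 6.79 with shBAP1 #2. It was near or below 5.44 in the first 6 arrays and well above in the last 3. It rose by 1.54 ± 0.17 with shBAP1 #2 (adjusted p = 8.66e-05), the largest rise among the 75, and changed by -0.06 ± 0.17 with shBAP1 #1 (adjusted p = 0.877).

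SIRT5, the mitochondrial desuccinylase, read 6.80, 7.29 and 7.17 in controls, 6.20, 6.19 and 6.43 with shBAP1 #1 and 6.55, 6.81 and 6.59 with shBAP1 #2. All shBAP1 #1 arrays were low, while shBAP1 #2 overlapped the lowest control by 1 array. It fell by 0.81 ± 0.13 (adjusted p = 0.000929) and 0.43 ± 0.13 (adjusted p = 0.024). The latter call was lost without shControl replicate 2 or 3 or shBAP1 #2 replicate 1 or 3 (adjusted p = 0.0696 to 0.0947). SIRT1, the nuclear sirtuin, changed by 0.28 ± 0.09 (adjusted p = 0.0559) and -0.22 ± 0.09 (adjusted p = 0.11). Its change with shBAP1 #1 passed in the fit without the shBAP1 #2 arrays, with replicate pairs (adjusted p = 0.0178) or without (0.0428), and without shControl replicate 3 (0.0472) or shBAP1 #2 replicate 2 (0.0356), and the difference between hairpins of -0.49 passed in the fit of all arrays (adjusted p = 0.00198). SIRT2 and SIRT6 rose with shBAP1 #2 by 0.51 (adjusted p = 0.000563) and 0.20 (adjusted p = 0.0431), against 0.01 and -0.08 with shBAP1 #1, and SIRT3 changed by 0.25 and 0.05 without passing.

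Of the 8 arginine methyltransferase genes, 1 fell with shBAP1 #1 and 1 rose with shBAP1 #2. PRMT3, which methylates a ribosomal protein, read 8.85, 8.90 and 9.09 in controls, 8.16, 8.35 and 8.31 with shBAP1 #1 and 8.88, 8.52 and 8.66 with shBAP1 #2. The shBAP1 #1 arrays lay below all controls, and shBAP1 #2 overlapped them. It fell by 0.67 ± 0.10 with shBAP1 #1 (adjusted p = 0.00081). The change of -0.26 ± 0.10 with shBAP1 #2 did not pass (adjusted p = 0.0855; 0.0162 without shBAP1 #2 replicate 1). PRMT2 rose by 0.50 ± 0.07 with shBAP1 #2 (adjusted p = 0.000395) and changed by 0.12 with shBAP1 #1. PRMT1, the main asymmetric enzyme, changed by 0.16 ± 0.07 and 0.06 ± 0.07, and PRMT5, the main symmetric one, by 0.14 ± 0.07 and -0.07 ± 0.07, neither called. PRMT6, PRMT7, PRMT8 and PRMT9 changed by -0.24 to 0.16 and passed with neither.

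**Figure D2:**
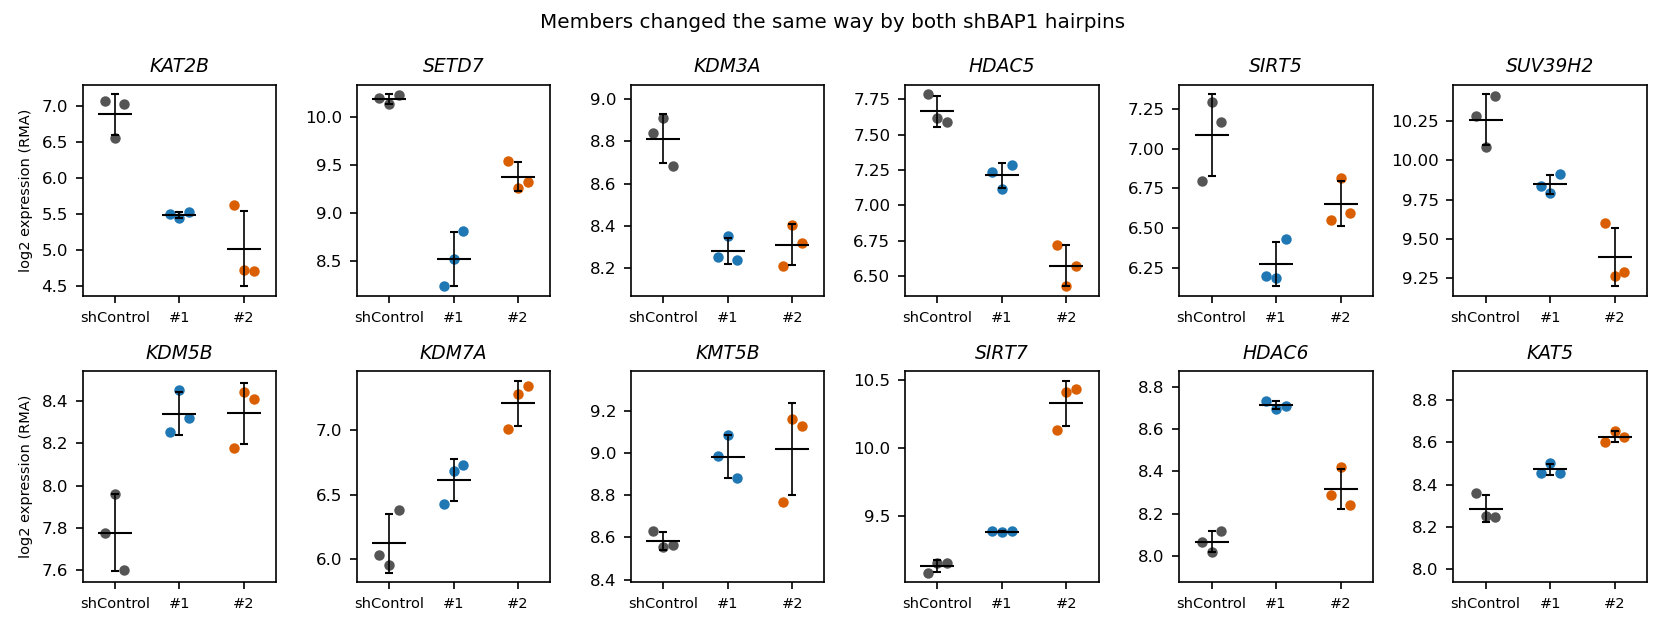
Log2 expression in each of the 9 arrays of the 12 genes called in the same direction with both hairpins; points are arrays, and bars show the group mean and SD (n = 3), each panel with its own axis of at least 1 log2 unit. SETD7 and KAT2B span more than 1 unit, while KAT5 rises by 0.18 and 0.34.

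Set directly against each other, the hairpins differed for 40 of the 75 genes. With shBAP1 #2, 14 were higher than with shBAP1 #1 (18.7%; 17.1% of all genes) and 26 were lower (34.7%; 17.6% of all genes, and 25.1% of those at or above 5.44). The largest called differences were SIRT4 (1.60 ± 0.17), SETD3 (-1.17 ± 0.23), HDAC8 (-0.97 ± 0.09) and SIRT7 (0.95 ± 0.08). They were followed by KAT6B (-0.87 ± 0.08), SETD7 (0.86 ± 0.13), NSD2 (-0.83 ± 0.10) and SETD5 (-0.66 ± 0.10). Without probe sets of suffix x or s, the NSD2 difference was 0.11 (adjusted p = 0.366) and that of SETD5 was -0.10 (adjusted p = 0.478). By family, 10 of 25 lysine methyltransferase and 5 of 9 acetyltransferase genes were lower with shBAP1 #2 than with shBAP1 #1, while 5 of 7 sirtuin genes were higher. The opposite calls of SETD4 and KAT7 had direct differences of -0.54 ± 0.07 (adjusted p = 0.000137) and -0.47 ± 0.07 (adjusted p = 0.000486). The difference for SIRT5 (0.38) was lost without shControl replicate 3 or shBAP1 #1 replicate 1 or 2 or shBAP1 #2 replicate 2 or 3 (adjusted p = 0.0547 to 0.154). The difference for KDM6A (-0.27) was lost without shBAP1 #1 replicate 2 or 3 or shBAP1 #2 replicate 1 (adjusted p = 0.0765 to 0.108). The difference for DOT1L (-0.32) was lost without shBAP1 #1 replicate 1 or 3 or shBAP1 #2 replicate 2 or 3 (adjusted p = 0.0758 to 0.113). The difference for EHMT2 (-0.27) was lost without shControl replicate 1 or shBAP1 #1 replicate 1 or 3 or shBAP1 #2 replicate 2 or 3 (adjusted p = 0.0584 to 0.147). The difference for PRMT5 (-0.21) was lost without shBAP1 #1 replicate 1 or 3 or shBAP1 #2 replicate 2 or 3 (adjusted p = 0.058 to 0.122).

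**Figure D3:**
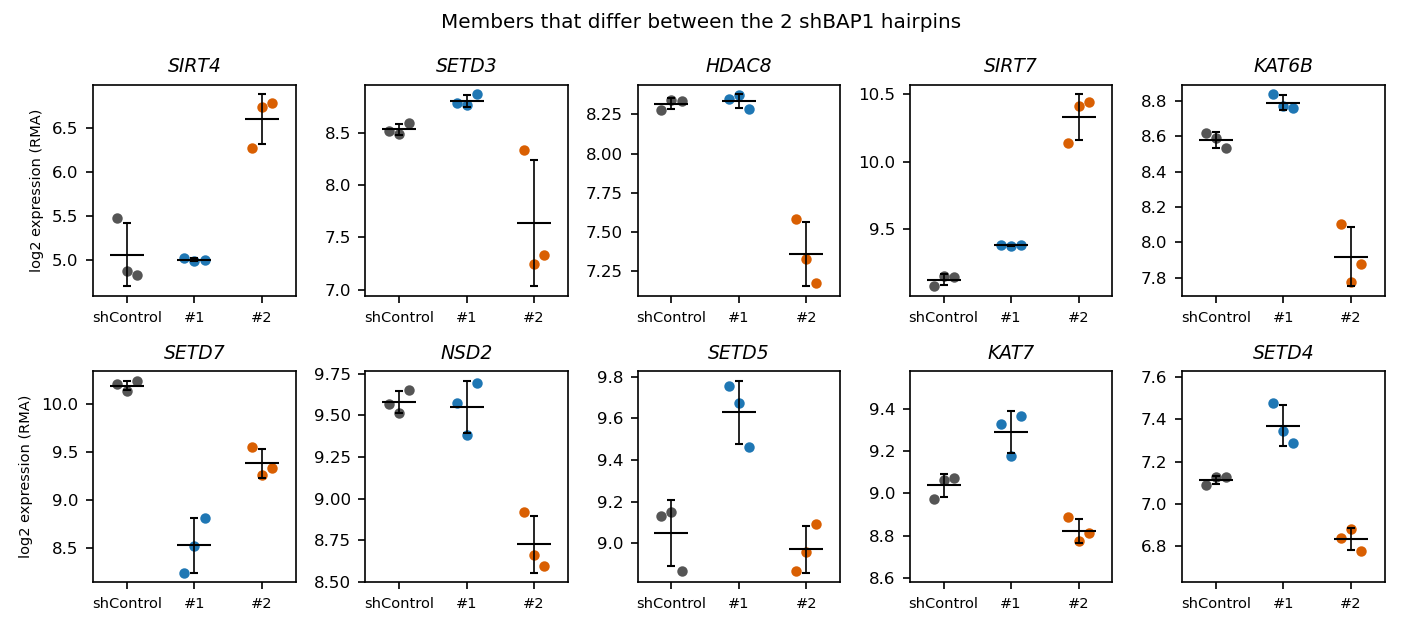
Log2 expression per array of the 8 genes with the largest called difference between the hairpins and of KAT7 and SETD4, which were called in opposite directions; bars show the group mean and SD (n = 3), and each panel has its own axis. SIRT4 and HDAC8 stand apart only in the shBAP1 #2 arrays, and replicate 1 of shBAP1 #2 lies at 8.33 for SETD3 against 7.24 and 7.34.

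Over all probe sets, shBAP1 #2 replicate 1 resembled the controls more than its partners did (mean r with controls 0.989, against 0.981 for both others). Of the 36 enzyme genes called with shBAP1 #2, 26 had replicate 1 as the array nearest to the control mean. The same count was not made over all genes, so it is no result about the enzymes. Without shBAP1 #2 replicate 1, 14 enzyme genes rose and 23 fell with shBAP1 #2. Genes of the cell cycle moved with the groups. Of 24 measured genes of G1 and S phase, 14 fell with shBAP1 #1 and 24 with shBAP1 #2 (median changes -0.48 and -1.04). Per array their median deviation was -0.13 to 0.07 in controls, -0.78 to -0.30 with shBAP1 #1 and -1.22 to -0.70 with shBAP1 #2. Of 22 genes of G2 and mitosis, 4 fell and 1 rose with shBAP1 #1 and 20 fell with shBAP1 #2 (medians -0.25 and -1.19). Per array, the G2 and mitosis median lay 0.61 below the control mean in replicate 1 of shBAP1 #2 and 1.53 and 1.44 below in replicates 2 and 3. The acetyltransferase median was -0.15 in replicate 1 and -0.26 and -0.23 in the other two, and the sirtuin median was 0.13, 0.21 and 0.26. The part of the cell cycle genes in these results was not tested.

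**Figure D4:**
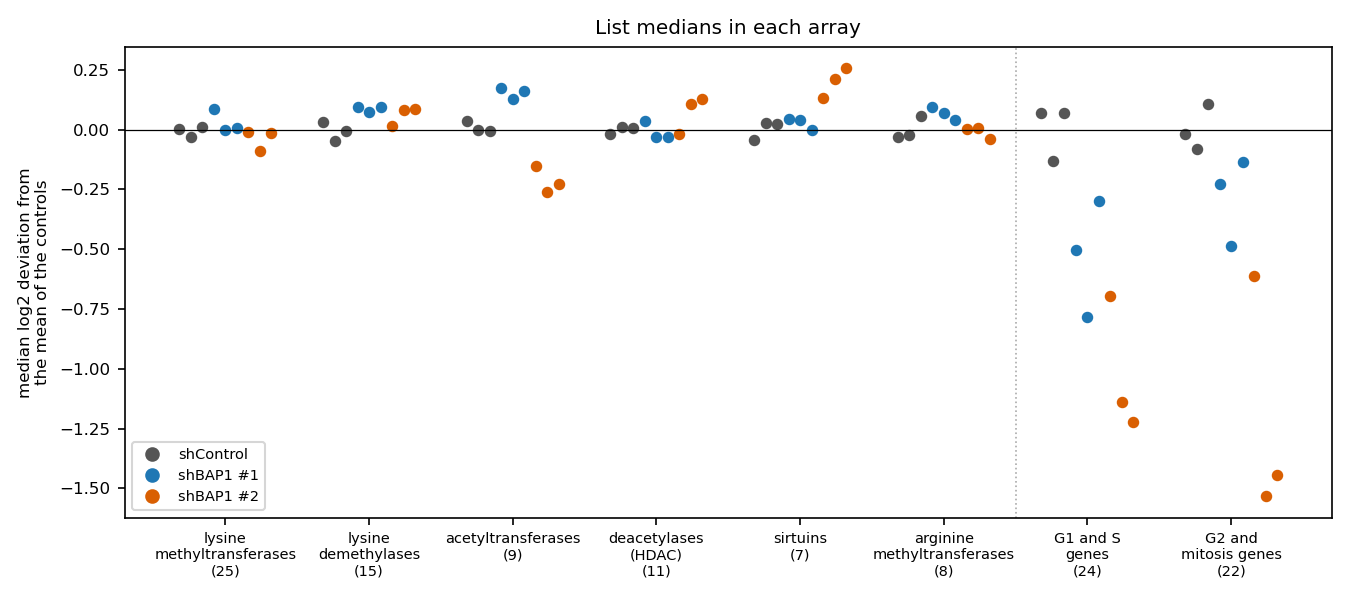
Median log2 deviation from the mean of the controls in each array, for the 6 enzyme families and for genes of G1 and S phase and of G2 and mitosis (number of genes in brackets). The G2 and mitosis genes reach -1.53 with shBAP1 #2, while the family medians stay between -0.26 and 0.26.

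Many of these genes have several probe sets, and these did not always move together. The 75 genes have 221 probe sets, and 59 genes have more than 1. In a fit over all probe sets, the genes called through their main set with shBAP1 #1 had 41 further sets, of which 17 were called the same way, 2 the opposite way (1 each of HDAC6 and SIRT5) and 22 were not called. With shBAP1 #2 there were 71 further sets, 20 called the same way, 1 the opposite way (NSD1) and 50 not called. Genes not called through their main set had 105 further sets with shBAP1 #1, of which 8 rose and 5 fell, and 75 with shBAP1 #2, of which 7 rose and 5 fell. These called sets belonged to 10 genes with shBAP1 #1 and 8 with shBAP1 #2. A gene given above as not called is so in its main set, and not all such further sets are named. With shBAP1 #1, all 5 sets of KDM6B rose and all 4 sets of KMT5A fell, and both sets of SIRT4 rose with shBAP1 #2 (1.54 and 1.43). For CREBBP, 1 of 4 sets fell with shBAP1 #2. The NSD2 set without shared probes changed by 0.03 with shBAP1 #2. It had the lowest mean of the 6 NSD2 sets (6.70), of which 3 fell with shBAP1 #2. When all sets of SIRT5 were averaged its changes were 0.02 and 0.01. KAT2B, SIRT7 and KAT7 are read by 1 set each, and SIRT7's carries the suffix for probes shared between transcripts. When sets with suffix s or x were left out, the changes of KDM5B were 0.07 and 0.05 and were not called. The KDM5B set used there was dim (mean 4.29), and 3 of the 5 KDM5B sets rose with both hairpins. The brightest remaining set of PRMT2 then rose with shBAP1 #1 (0.79, adjusted p = 0.000105). A brighter PRMT2 set of suffix s, not the main one, fell with shBAP1 #1 (-0.41, adjusted p over all probe sets 0.0054). The brightest remaining set of SETD5 changed by 0.19 with shBAP1 #1 and was not called (adjusted p = 0.184). That of SETD4 changed by 0.16 with shBAP1 #2, where the main set fell. Averaged over all sets, SETD4 changed by -0.0089 with shBAP1 #2 (adjusted p = 0.945), HDAC6 changed by 0.15 and 0.04, with neither called (adjusted p = 0.158 and 0.739), and KMT5B by 0.20 with shBAP1 #1 (adjusted p = 0.0661).

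The enzymes work in complexes, and 119 of 124 listed genes of partner subunits, further enzymes and readers were measured. Of these, 25 rose and 21 fell with shBAP1 #1 (13% and 12.6% of all genes) and 23 rose and 38 fell with shBAP1 #2 (16.9% and 16.5%). With both, 12 rose and 13 fell (6.22% and 5.49%). Of 13 COMPASS subunits, WDR82 rose with both (0.45 and 0.56), and the shared core subunit ASH2L (-0.74 and -0.67), PAXIP1 (-0.53 and -0.49) and PAGR1 (-0.29 and -0.34) fell. Of 44 acetyltransferase complex subunits, 4 rose and 4 fell with both. The KAT2 partners TADA3 (-1.20 and -0.96) and TADA2A fell, and ATXN7L3 (0.67 and 0.66) and USP22 (0.63 and 0.74), of the SAGA deubiquitinase module, rose. These SAGA and ADA partners of KAT2B thus went both ways.

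Of 29 measured deacetylase complex subunits, 4 rose with both (SIN3B, GPS2, TBL1XR1 and MTA1), and MTA2 fell (-0.36 and -0.35). SIN3B, a scaffold for HDAC1 and HDAC2, rose by 0.56 and 0.51. Of 19 measured further enzymes, CARM1, the arginine methyltransferase outside the PRMT symbols, rose by 0.84 and 0.80, and PRDM2 rose as well. HAT1, which acetylates newly made H4 (-0.47 and -0.57), and SMYD4 (-0.45 and -0.45) fell. Of 14 measured readers, the heterochromatin proteins CBX5 (-0.62 and -0.87) and CBX1 (-0.58 and -1.62), which bind methylated lysine 9, and ZMYND11 fell with both, and BRD2 rose (0.29 and 0.21).

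Markers and array quality were as follows. Control levels were 14.08 for VIM, 12.61 for SPARC and 11.25 for COL1A1, of the mesenchymal line, whereas ALPL, COL1A2, SP7 and IBSP lay below 5.44. Of the 9 such markers measured, COL1A1 (0.99), RUNX2 (1.20) and SPARC (0.35) rose and SPP1 fell by 2.54 with shBAP1 #1, while SPP1 (1.93) and ALPL (1.18) rose with shBAP1 #2. Of the 3 blood markers measured, all lay below 5.44 in controls. Of 5 epithelial markers, KRT18, KRT8 and EPCAM fell with both hairpins, and CDH1 and KRT19 lay below 5.44 in controls. The list's median deviation per array was -0.03 to 0.11 in controls, -0.54 to -0.35 with shBAP1 #1 and -0.63 to -0.51 with shBAP1 #2. Of 2 endothelial markers, PECAM1 fell with both (7.78 in controls), and CDH5 was at 4.11. The 3′ minus 5′ difference of the actin probe sets, a sign of RNA integrity, was 0.47 to 0.51 in controls, 0.39 to 0.41 with shBAP1 #1 and 0.39 to 0.46 with shBAP1 #2. The part of these values in the results was not tested.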

How the data were processed

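RNA of 9 samples was hybridised to oligonucleotide arrays of 54675 probe sets. The deposited values are log2 expression; the submitters' processing notes name RMA without a version. RMA gives every array the same intensity distribution, which removes any shift of all transcripts, and it compresses the changes of dim probe sets. For arrays, their number limits the precision.

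Of the probe sets, 41097 had 1 gene symbol in the platform annotation, 1801 had several and 11777 were unlisted. Through gene identifiers 41043 matched the RefSeq gene table, and 0 symbols were updated. The probe set with the highest mean was kept for each of 19775 genes. Models were fitted with limma 3.58.1 (lmFit and eBayes, two-sided) in R 4.3.3 over all 9 arrays (3 groups; degrees of freedom 6 residual, 4.33 prior). An adjusted p (Benjamini-Hochberg over all genes) below 0.05 was a call, with no fold minimum. The fit was tested on simulated data. Figures used matplotlib 3.10.9 in Python 3.11.15.

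The members, gene lists and motifs were chosen with earlier results of these data known. Of the members, 41 were named by rule: those called the same way by both hairpins, those called in opposite directions, the 8 largest differences between hairpins, the 2 largest mean changes per family and 22 well-known enzymes. Other members are named so that each is accounted for. Up to 4 genes per list of partners were named by the smaller of their absolute changes.

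Groups share replicate numbers. Deviations from group means of same-numbered arrays correlated at 0.11 to 0.22 between shControl and shBAP1 #1, so these numbers were taken as pairs in the fits named as such. They correlated at -0.11 to 0.18 between shControl and shBAP1 #2 and at -0.21 to 0.04 between the hairpins. The main fit, which gave the counts and adjusted p, used no pairs. The pairing was inferred from these same data. Alternatives were cyclic loess, dim probe sets left out, the mean of all probe sets, sets without suffix x or s, only the arrays compared, limma-trend, a replicate block, a minimum of 1.5-fold and each array left out. A block within the arrays of shControl and shBAP1 #1 was added after seeing the data.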

Additional observations from a re-analysis of the deposited data

Results flagged for a closer look

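KAT7 and SETD4 were picked out because the hairpins had opposite calls against the same 3 controls and the direct test of the difference was called as well. KAT7 was lower with shBAP1 #2 than with shBAP1 #1 by a log2 difference of -0.47 (limma, adjusted p = 0.000486), and SETD4 by -0.54 (adjusted p = 0.000137). The fall of SETD4 with shBAP1 #2 was -0.0089 and not called with the mean of all probe sets (adjusted p = 0.945), and was 0.16 without sets of suffix x or s. The fall of KAT7 was not called with the replicate block (adjusted p = 0.0577). With 1 array left out, 0 to 6 members had opposite calls.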

How the results depend on the processing

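Cyclic loess, leaving out dim probe sets and limma-trend kept every count of called members within 1.5 times its value. With the mean of all probe sets, 11 members were lower for the mean of both hairpins. With probe sets without suffix x or s, which cover 62 members, shBAP1 #2 raised 7 and lowered 13, 8 were higher than with shBAP1 #1, 3 rose with both, 0 were opposite and 8 were higher for the mean of both. With only the arrays compared, 4 were opposite. With a minimum of 1.5-fold, 1 rose and 5 fell with shBAP1 #1, 5 rose and 9 fell with shBAP1 #2, 5 were higher and 7 lower between hairpins, 0 rose and 2 fell with both, 0 were opposite, and 3 were higher and 5 lower for the mean of both. Leaving out each array gave 7 to 17 higher and 8 to 11 lower with shBAP1 #1, 12 to 16 and 16 to 23 with shBAP1 #2, 12 to 15 and 21 to 27 between hairpins, 1 to 6 and 4 to 7 with both, 0 to 6 opposite, and 11 to 15 and 11 to 20 for the mean. Some of these settings used fewer genes or samples, and the cause of these moves was not tested.

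Among single genes, 7 values reversed: SIRT5 with the mean of all probe sets (0.0192, 0.0082 and -0.011 for shBAP1 #1, shBAP1 #2 and their difference), the SUV39H2 difference there (0.0624), and, without suffixes x or s, SETD4 (0.16) and NSD2 (0.0328) with shBAP1 #2 and the NSD2 difference (0.11). These settings changed the probe sets used, and the cause of the reversals was not tested. Over 1107 values of named genes with 1 array left out, 0 called values reversed, 89 calls were lost and 16 gained; the sign of uncalled values near 0, such as SIRT4 with shBAP1 #1, could turn.

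With the replicate number as a block over all 9 arrays, 14 members rose and 10 fell with shBAP1 #1, 15 and 19 changed with shBAP1 #2, 14 and 25 differed between hairpins, 6 and 6 changed with both, 2 were opposite and 14 and 17 changed for the mean. Of the named genes this block lost KAT5 and KMT2D with shBAP1 #1 (adjusted p = 0.0826 and 0.0594), KAT7 and DOT1L with shBAP1 #2 (0.0577 and 0.0621) and the PRMT5 difference (0.0576). It gained SIRT1 with both hairpins, in opposite directions (0.28 and -0.22, adjusted p = 0.0149 and 0.0343). SIRT1 thus took the place of KAT7 among the 2 opposite genes, and KDM2B that of KAT5 among the 6 that rose with both. The block within the arrays of shControl and shBAP1 #1 gave 17 higher and 11 lower. It changed no call of a named gene beyond those given beside the results. By a hint from the data, 4 of 9 arrays correlated best with their own number in both other groups.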
